A study of Mus musculus with 14 samples.

Results

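A set of 32 genes was listed at 0 in every library of transplanted young hematopoietic stem cells (yHSCs) and above 0 in at least 2 libraries of transplanted old ones (oHSCs). These genes were chosen by their yHSC values in a table of 1043 genes, of which 36 were at 0 in all 3 yHSC libraries. Cma1 and Tpsab1 were left out by the rule, and Tpsb2 and Mcpt4 because they also stand in the study's second table, on a Clu knockout. The zeros in yHSCs selected the genes and are no result, so no test of old against young is given for any of them. What follows describes their levels in the 4 oHSC libraries, the spread between those libraries, and what the genes are.

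Donor oHSCs and yHSCs were transplanted into irradiated CD45.1 recipients aged 2 months, and 4 months later the donor HSCs were sorted back out of the recipients' marrow. The study used C57BL/6J mice, purchased at 2 months as young and at over 18 months as old animals. It also used young and aged Rosa26-Cas9 knock-in mice, and the sources used here do not say which strain gave the donors of these 7 libraries. No guide RNA is named for these 2 groups. The labels give both groups only as hematopoietic stem and progenitor cells, so the sex of a donor and the number of mice pooled in a library are not known, and p-values measure only the spread between libraries. RNA was amplified by SMART-Seq, a method that reads whole transcripts from few cells. The values are read as FPKM, the fragments of a gene divided by the length of its transcript and by all mapped fragments of the library.

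The table holds only genes that the authors had called higher in oHSCs from these same libraries. In limma on log2(FPKM + 1), 652 of 1043 genes were higher in oHSCs (62.5%) and 10 were lower (0.959%), at an unadjusted p limit of 0.05 and a log2 fold change limit of 0.5. Scaling the columns by the median of ratios between libraries changed this split to 125 higher (12.0%) and 54 lower. The median log2 fold change of all genes moved from 0.70 to 0.07. This scaling rests only on genes selected as higher in oHSCs and removes the shift they share. A drop in calls was therefore built in, and the scaled counts cannot tell a change of the genes from depth. With Benjamini-Hochberg adjusted p-values in limma, 389 genes were higher (37.3%). The depth of the libraries is unknown. The oHSC libraries listed between 5 and 12 genes of the table at 0, and the yHSC libraries between 73 and 96. Of 14 HSC marker genes looked for, 5 stood in the table (Procr, Slamf1, Esam, Gfi1b and Mmrn1), and all 5 were above 0 in every library. Of 3 markers of progenitors that long-term HSCs lack (Flt3, Cd48 and Il7r), 0 stood in it, so neither list could be checked in full. Procr lay between 3.65 and 16.5 FPKM over all libraries, and Slamf1 between 0.762 and 4.21 FPKM. Genes of more mature blood cells stood far higher, with oHSC means of 4509 FPKM for Elane, 1615 FPKM for Mpo and 1247 FPKM for Car1. The purity of the sorted cells was not tested.

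HSCs sit at the top of blood formation and give rise to myeloid, lymphoid, erythroid and megakaryocytic cells. With age they gain in number and yield more myeloid and fewer lymphoid cells. RNA from few cells is read sparsely for weakly expressed genes, so that a transcript present in a cell can be missing from a library. A value of 0 therefore says only that no fragment was assigned to the gene.

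The gene with the highest level was 1700048O20Rik, a long intergenic noncoding RNA at chr9:121937223-121947016 on the plus strand of GRCm38. It was at 19.7, 17.0, 28.0 and 28.5 FPKM in oHSC replicates 1 to 4, a mean of 23.3 ± 5.85 FPKM (SD, n = 4). All 4 values lay well above those of every other gene of the set, whose means reached at most 2.59 FPKM. This one gene took 44.0%, 33.7%, 55.7% and 58.9% of the summed level of the 32 genes in replicates 1 to 4. Its exons overlap those of Gm49343, another long noncoding RNA on the same strand, and 19.1% of the 50-base words of its longest transcript also occur in transcripts of other genes, so reads may have been split or shared between the 2.

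The sequences around the start of the 3 genes of highest level that have a promoter in the RefSeq table (GRCm38.p6) are shown because the motifs counted next were searched in them. Each runs from 250 bases before to 50 after the start, 5′ to 3′ on the strand of the gene, with every match to a searched motif in capitals. They cover chr9:121937025-121937324 on the plus strand, chr11:4441033-4441332 on the minus strand and chr3:57301939-57302238 on the minus strand.
1700048O20Rik: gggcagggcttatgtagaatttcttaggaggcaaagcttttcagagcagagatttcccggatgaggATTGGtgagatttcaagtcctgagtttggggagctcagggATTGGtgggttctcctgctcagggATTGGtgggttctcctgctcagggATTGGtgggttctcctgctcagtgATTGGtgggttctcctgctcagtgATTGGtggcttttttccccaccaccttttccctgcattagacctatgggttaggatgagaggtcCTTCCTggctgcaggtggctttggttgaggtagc
Hormad2: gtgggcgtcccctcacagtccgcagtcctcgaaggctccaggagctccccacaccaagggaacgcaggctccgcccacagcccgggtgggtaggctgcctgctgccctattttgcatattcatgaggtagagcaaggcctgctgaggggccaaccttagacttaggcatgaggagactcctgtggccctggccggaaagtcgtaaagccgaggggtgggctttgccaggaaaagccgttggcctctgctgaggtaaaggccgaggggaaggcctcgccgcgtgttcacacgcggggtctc
Tm4sf1: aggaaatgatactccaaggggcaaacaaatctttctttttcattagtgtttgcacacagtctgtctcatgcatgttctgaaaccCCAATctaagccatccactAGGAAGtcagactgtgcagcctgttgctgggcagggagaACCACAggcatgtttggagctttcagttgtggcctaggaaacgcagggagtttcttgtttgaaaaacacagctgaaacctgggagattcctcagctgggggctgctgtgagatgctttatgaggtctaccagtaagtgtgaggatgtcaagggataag

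Capitals in the first sequence mark 6 copies of the CCAAT box, read here on the minus strand as ATTGG, and 1 AGGAAG, an ETS factor motif, read as CTTCCT. The CCAAT boxes began 184, 144, 120, 96, 72 and 48 bases before the start, so that the last 5 followed each other every 24 bases within a tandem repeat. Of all 32851 RefSeq promoters of 300 bases, 26 (0.0791%) held as many copies on either strand, and among the 854 promoters of listed genes this one alone did. The CCAAT box was searched after the sequences had been read. In the third sequence capitals mark a CCAAT box 166 bases before the start, an AGGAAG 147 bases before it and a TGTGGT, a RUNX factor motif read as ACCACA, 108 bases before it. The second sequence held 0 matches.

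Of the 32 genes, 17 had 21 promoters in the RefSeq table. The ETS factor motif AGGAAG occurred on either strand in 9 of the 21 (42.9%), against 35.4% of all RefSeq promoters. The CCAAT box was found in 8 of these promoters (38.1%), and 37.4% of all promoters held it. The letters TATAAA of the TATA box occurred in 4 (19.0%, against 13.6% of all). The RUNX factor motif, TGTGGT, was seen in 2 (9.52%, against 16.8%), and CACGTG, an E-box bound by basic helix-loop-helix factors, also in 2 (9.52%, against 7.15%). For the GATA factors of blood formation the letters AGATAA were searched, and they stood in 1 promoter (4.76%, against 11.2%). No motif searched contains another. These letters mark matches and not bound sites, and with 21 promoters each share moves by several percentage points for a single sequence. The median number of CpG dinucleotides in 300 bases was 10 in these promoters, 14 in those of all genes of the table and 7 in all RefSeq promoters.

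Below 1700048O20Rik, 6 genes had a mean of at least 1 FPKM. Cryab, which encodes the small heat shock chaperone alpha-B-crystallin, was at 2.41, 3.67, 2.53 and 1.76 FPKM in replicates 1 to 4 (mean 2.59 ± 0.797, SD, n = 4). Gm46515, a long noncoding RNA whose annotated transcript spans 289 bases, was at 1.15, 2.65, 2.91 and 1.98 FPKM. Hormad2, which encodes a protein of the meiotic chromosome axis, was at 3.20, 1.60, 2.30 and 1.10 FPKM (mean 2.05 ± 0.914, SD, n = 4). With 1700048O20Rik, these 3 were the 4 genes of the set at or above 1 FPKM in every oHSC library.

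Tm4sf1 encodes a small membrane protein with 4 transmembrane segments that is prominent in endothelium. It was at 2.89 and 3.30 FPKM in replicates 1 and 2 and at 1.30 and 0.708 FPKM in replicates 3 and 4. Degs2, which encodes an enzyme that makes phytoceramides, was at 1.08, 2.57, 0.628 and 1.13 FPKM. Rps4l, annotated as a transcribed processed pseudogene and named after ribosomal protein S4, at chr6:148354656-148355598, was at 3.89 and 5.44 FPKM in replicates 1 and 2 and listed at 0 in replicates 3 and 4. It was the only one of these 7 genes with a 0 in an oHSC library, and 14.9% of its 50-base words occur in transcripts of other genes.

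**Figure D1:**
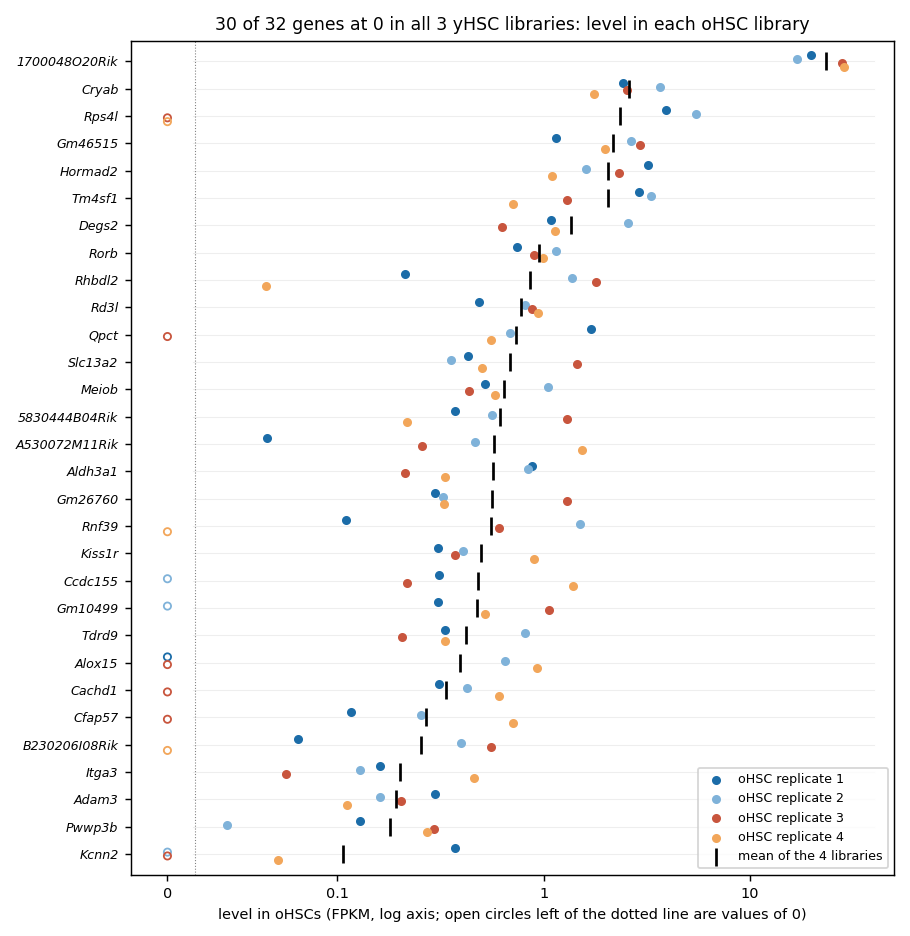
Level of 30 of the 32 genes in each of the 4 oHSC libraries (FPKM, log axis), ordered by the mean (black tick), with values of 0 as open circles left of the dotted line. 1700048O20Rik stands at 17.0 to 28.5 FPKM, 6 further genes have a mean between 1.35 and 2.59 FPKM, and the other genes lie below 1 FPKM.

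The remaining 25 genes had means between 0.106 and 0.946 FPKM. Over all 32 the median of the mean level was 0.571 FPKM (quartiles 0.414 and 0.876), against 11.7 FPKM (quartiles 3.41 and 37.0) in the other 1011 genes of the table. A mean of at least 1 FPKM was reached by 7 of the 32 (21.9%) and by 928 of the 1011 (91.8%). Both figures describe genes already chosen for a difference between the groups.

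Zeros in yHSCs went with low levels in oHSCs across the table. Of the 13 genes with an oHSC mean under 0.25 FPKM, 4 were at 0 in all 3 yHSC libraries (30.8%), and from 0.5 to 1 FPKM 13 of 59 were (22.0%). Between 1 and 2 FPKM the share was 2.44% (2 of 82 genes). At 10 FPKM or more it was 0.552%, or 3 of 543 genes, which are 1700048O20Rik and the mast cell genes Cma1 and Tpsb2. These counts include the 4 genes left out.

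**Figure D2:**
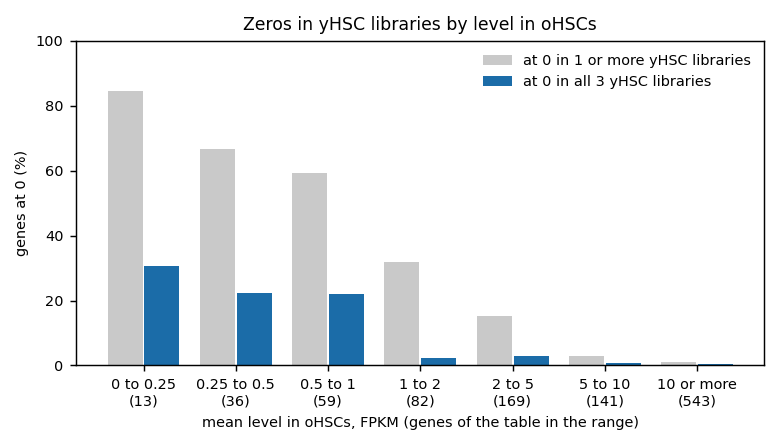
Share of the genes of the table at 0 in 1 or more (grey) or all 3 (blue) yHSC libraries, by range of the mean oHSC level in FPKM, with the number of genes of each range in brackets. The share at 0 in all 3 falls from 30.8% under 0.25 FPKM to 0.552% at 10 FPKM or more.

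The lowest values above 0 listed in yHSC replicates 1, 2 and 3 were 0.00438, 0.0101 and 0.000794 FPKM. The highest oHSC value of all 32 genes lay above each of these 3 values, and in 22 of the 32 the lowest oHSC value did too. The same 22 genes (68.8%) were above 0 in all 4 oHSC libraries and thus had no value in common with yHSCs. Among all 1043 genes, 518 (49.7%) had all 4 oHSC libraries above all 3 yHSC libraries. Since the rule set every yHSC value to 0, nothing is read from this difference.

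In the oHSC libraries 13 of the 128 values of the set were 0. These fell in 10 genes, 7 of them above 0 in 3 libraries and 3 in 2. Replicates 1 to 4 held 1, 3, 6 and 3 of these zeros, so replicate 3 had the most, and it also had the most, 12, among all 1043 genes. Of the other 1011 genes, 14 had a 0 in any oHSC library. Their median mean level was 11.7 FPKM, against 0.571 FPKM in the set, and these counts were not matched for level.

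The genes just outside the rule were at 0 in 2 yHSC libraries and low in the third. Luzp2 was at 0.0186 FPKM in that library, C230038L03Rik at 0.0321, Skint3 at 0.0361, Gm26614 at 0.0400 and Cfap74 at 0.0402 FPKM. Their oHSC means were 0.241, 0.464, 0.278, 0.271 and 0.300 FPKM, within the range of the 32 genes. In all, 43 genes were at 0 in exactly 2 yHSC libraries and 52 in exactly 1. Without yHSC replicate 1 the rule would have taken 50 genes, and a limit of under 0.1 FPKM in place of 0 would have taken 57.

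The spread between the 4 oHSC libraries was wide for most of these genes. The coefficient of variation (SD divided by the mean over the 4 libraries) had a median of 75.7% over the 32 genes and ranged from 18.2% to 169%. In the other genes its median was 26.3%. Among genes under 1 FPKM the medians were 87.6% for 25 genes of the set and 56.5% for 83 others, with median levels of 0.506 and 0.580 FPKM. These values are given as a description, because the rule and the authors' selection both acted on the same libraries.

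**Figure D3:**
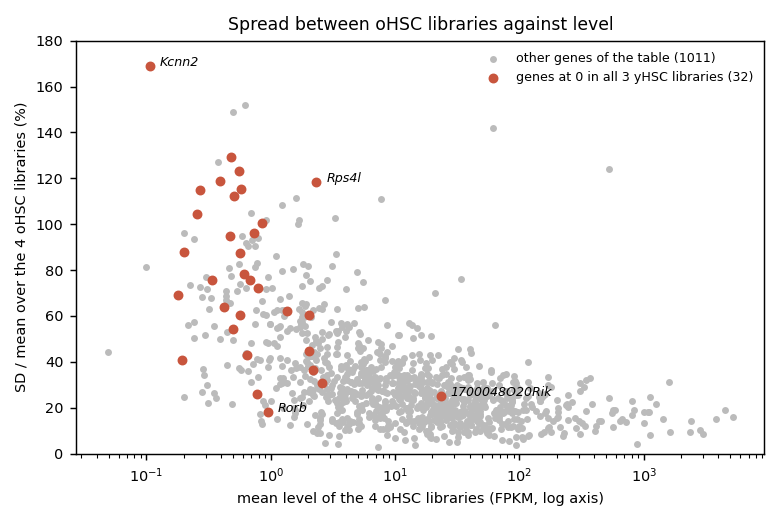
Coefficient of variation over the 4 oHSC libraries (%) against the mean oHSC level (FPKM, log axis) for the 32 genes (red) and the other 1011 genes of the table (grey). 1700048O20Rik lies at 25.1% and Rorb at 18.2%, while Rps4l lies at 119% and Kcnn2 at 169%.

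Only 3 of the 32 genes (9.38%) had a highest oHSC value under 2 times the lowest, against 61.1% of the other genes. Rorb was the steadiest, at 0.744, 1.15, 0.893 and 0.994 FPKM in replicates 1 to 4 (mean 0.946 ± 0.172, SD, n = 4). It encodes an orphan nuclear receptor known from retina and brain, and its longest transcript, at 9293 bases, was the longest of the set. Rd3l, related to a retinal degeneration gene, was at 0.483, 0.809, 0.874 and 0.934 FPKM. 1700048O20Rik was the third, with a ratio of 1.68 between its highest and its lowest library.

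At the other end, 22 of the 32 genes had a highest value at least 4 times the lowest or a lowest value of 0. Of the other 1011 genes, 113 did. In 10 of the 22 the lowest value was 0, and the counts were not matched for level. Rhbdl2, which encodes a rhomboid protease that cuts within membranes, was at 0.213, 1.37, 1.79 and 0.0451 FPKM, a ratio of 39.6 between the extremes. A530072M11Rik, a noncoding transcript, was at 0.0456, 0.463, 0.257 and 1.54 FPKM, a ratio of 33.7. Pwwp3b, whose product carries a PWWP chromatin-reading domain, was at 0.129, 0.0290, 0.293 and 0.272 FPKM. The lowest library was a different one in each of the 3.

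Of the set, 5 genes were on the list of germ cell and meiosis genes, which also held 14 of the other 1011 genes of the table. The lists were written with many gene names of the table known, so the number of genes on a list depends on how it was written and is only a description. Hormad2 is described above. Meiob, which encodes a single-stranded DNA-binding protein of meiotic recombination, was at 0.516, 1.05, 0.432 and 0.582 FPKM. Tdrd9, whose product is a helicase of transposon silencing by piRNAs, was at 0.333, 0.815, 0.206 and 0.330 FPKM. Both were highest in replicate 2 and lowest in replicate 3.

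Ccdc155 encodes a protein that ties meiotic chromosome ends to the cytoskeleton through the nuclear envelope. It was at 0.310, 0, 0.218 and 1.38 FPKM. Adam3, which encodes a sperm surface protein, was at 0.297, 0.160, 0.203 and 0.111 FPKM. The 5 genes thus had no common order of the libraries. Of the 14 other listed genes of this kind, 10 were higher in oHSCs and 0 lower, with a median log2 fold change of 0.87, and 6 were higher after median-of-ratios scaling. The authors' selection had already placed all of them in a table of genes higher in oHSCs, of which 62.5% were called here, and 12.0% after that scaling.

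Rorb, described above, stood on the list of transcription factor genes. Of the 19 genes of that list outside the set, 10 were higher (median log2 fold change 0.60; 3 after median-of-ratios scaling), and of 8 lymphocyte genes outside the set 4 were (1.13; 3). Brackets after later counts hold the same values in the same order.

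On the metabolic list were Degs2 and Rhbdl2, described above, and Aldh3a1 and Alox15. Aldh3a1, an aldehyde dehydrogenase abundant in cornea, was at 0.877 and 0.841 FPKM in replicates 1 and 2 and at 0.213 and 0.332 FPKM in replicates 3 and 4. Alox15, a lipoxygenase that oxidizes arachidonic acid, was at 0.651 and 0.922 FPKM in replicates 2 and 4 and at 0 in replicates 1 and 3. Of 24 other genes of the list, 17 were higher, with a median log2 fold change of 0.74 (5 after median-of-ratios scaling).

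Membrane and signalling genes were each low. Slc13a2, which encodes a sodium-coupled transporter of dicarboxylates, was at 0.427, 0.354, 1.46 and 0.502 FPKM. Kcnn2, a calcium-activated potassium channel gene, had the lowest mean of the set, with 0.373 FPKM in replicate 1, 0.0517 in replicate 4 and 0 in replicates 2 and 3. Kiss1r, the receptor of kisspeptin, was at 0.306, 0.405, 0.372 and 0.894 FPKM. In each of these 3 genes a single library stood apart, and it was a different one each time. Of 23 other channel, transporter and junction genes 13 were higher (median log2 fold change 0.67; 6 after median-of-ratios scaling), and of 21 other hormone and receptor genes 11 were (0.65; 4).

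Itga3, the laminin-binding integrin alpha-3, was at 0.161, 0.129, 0.0562 and 0.459 FPKM. With Cryab it stood on the muscle and cytoskeleton list, of whose 16 other genes 10 were higher (median log2 fold change 0.64; 1 after median-of-ratios scaling). Cfap57, a gene of motile cilia, was at 0.117, 0.254, 0 and 0.709 FPKM, and of 10 other cilia genes 3 were higher (0.54; 0; 5 with the replicate number as a block, which called 72.1% of all genes). Tm4sf1 was the only gene of the set among stroma and endothelium genes, of which 8 of 11 others were higher (0.82; 3).

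Qpct, which encodes an enzyme that caps peptides with pyroglutamate, stood on the neutrophil and monocyte list and was at 1.70, 0.689, 0 and 0.555 FPKM. Of 18 other genes of that list 13 were higher (median log2 fold change 0.82; 3 after median-of-ratios scaling), where the shares over all 1043 genes were 62.5% and 12.0%. The erythroid, megakaryocyte and platelet, and interferon lists had 0 genes in the set. Their genes in the table were above 0 in at least 1 yHSC library, and 11 of 14 (0.97; 4), 7 of 8 (0.92; 1) and 15 of 25 (0.66; 1) were higher, beside the same shares over all genes. With Benjamini-Hochberg adjusted p-values in limma, 37.3% of all genes were called. The counts then were 6 of 14 for germ cells, 6 of 19 for transcription factors, 4 of 8 for lymphocytes, 11 of 24 for metabolism, 7 of 23 for channels and transporters, 6 of 21 for hormones and receptors and 6 of 16 for muscle and cytoskeleton. For stroma and endothelium they were 3 of 11, for cilia 0 of 10, for neutrophils and monocytes 11 of 18, for erythroid genes 10 of 14, for megakaryocytes and platelets 5 of 8 and for interferon 7 of 25. Nothing particular to a list is read from these counts.

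Of the set, 8 genes are not annotated as protein coding. By GENCODE M21 they comprise 3 long intergenic noncoding RNAs, 2 processed transcripts, 1 locus of the separate class TEC (B230206I08Rik) and 2 pseudogenes. Genes that are neither protein coding nor pseudogenes made up 18.8% of the set and 5.19% of the other genes of the table. Among those others they include 7 TEC loci and 2 immunoglobulin V genes. Pseudogenes made up 6.25% against 12.7%. These shares were not matched for level. Besides those described, Gm26760 was at 0.296, 0.325, 1.30 and 0.327 FPKM and 5830444B04Rik at 0.371, 0.564, 1.30 and 0.216 FPKM. B230206I08Rik, within the span of Dlg2 on the same strand, was at 0.0642, 0.397 and 0.553 FPKM and at 0 in replicate 4. The pseudogene Gm10499 was at 0.306, 0, 1.06 and 0.520 FPKM. Gm26760, 5830444B04Rik, B230206I08Rik, Gm10499 and Gm46515 were all highest in replicate 3, 1700048O20Rik and A530072M11Rik in replicate 4, and Rps4l in replicate 2. The 8 had a median mean level of 0.594 FPKM and the 24 protein-coding genes one of 0.560 FPKM.

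A further 2 protein-coding genes stood on no list and were at 0 in 1 oHSC library each. Rnf39, which encodes a RING finger protein, was at 0.110, 1.50, 0.609 and 0 FPKM. Cachd1, whose product resembles auxiliary subunits of calcium channels, was at 0.311, 0.423, 0 and 0.606 FPKM.

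Reads of some of these genes cannot be assigned without doubt. The exons of 10 of the 32 genes overlap exons of another gene, in 9 of them on the opposite strand, and the library kit does not mark strand. Such overlaps were not counted for the other genes of the table, so whether they are particular to the set is not known. Cryab overlaps its neighbour Hspb2, Degs2 overlaps Evl, Kiss1r overlaps R3hdm4, and Slc13a2 overlaps the antisense gene Slc13a2os. 5830444B04Rik overlaps Cfap74, 1 of the genes just outside the rule. Cfap74 was at 0 in replicate 3, where 5830444B04Rik was highest, and sharing of reads between the 2 was not tested. Rd3l lies within the span of Tdrd9 on the opposite strand, without shared exons. In 7 of the 32 genes (21.9%) over 10% of the 50-base words of the longest transcript occurred in other genes, against 34.5% of the other genes of the table.

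The longest transcripts of the set had a median of 2336 bases, and those of the other genes 2087 bases. Across the 32 genes Spearman's rho between the mean level and this length was -0.57, given as a description over genes that share the same libraries and whose levels are divided by length. Genes with 1 exon were 2 of the 32 and 180 of the other genes.

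The libraries in which the genes were high varied from gene to gene. Replicates 1 to 4 held the highest value of 6, 9, 8 and 9 of the 32 genes. For the other 1011 genes of the table the counts were 378, 347, 149 and 137, so replicates 1 and 2 were most often the highest there. Across the 32 genes, Spearman's rho between libraries was 0.62 for replicates 1 and 2 and between 0.29 and 0.40 for the other 5 pairs. Genes within a library share its depth, and no test was made.

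Replicates 1 and 2 were also those with the highest levels of 3 of 4 mast cell protease genes. In bulk RNA fewer cells of a type and less RNA per cell cannot be told apart. Cma1, the mast cell chymase, was at 54.6 and 58.9 FPKM in replicates 1 and 2 and at 11.6 and 11.8 FPKM in replicates 3 and 4. Tpsb2, a tryptase, was at 30.1, 36.4, 6.55 and 10.3 FPKM, and Mcpt4, a second chymase, at 7.56, 6.76, 2.41 and 3.77 FPKM. The tryptase gene Tpsab1 was at 2.34, 0.0286, 1.18 and 0.886 FPKM, so replicate 2 was its lowest.

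Of 31 mast cell and basophil genes 11 stood in the table, 0 of them in the set of 32. Their summed level was 503 to 809 FPKM in the oHSC libraries and 236 to 375 FPKM in the yHSC libraries. The sum over all 1043 genes differed in the same direction, at 71628 to 84123 FPKM against 42199 to 54607 FPKM. All 11 had been selected by the authors as higher in oHSCs, so nothing is read from this difference. The proteases Cma1, Tpsab1, Tpsb2 and Mcpt4 were at 0 in all 3 yHSC libraries, while Cpa3 and Mcpt8, the most abundant of the list, were between 100.3 and 182 FPKM there. Of the 7 genes of the list above 0 in any yHSC library 6 were higher in oHSCs (median log2 fold change 1.03; 2 after median-of-ratios scaling and 3 with adjusted p-values in limma).

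In 5 genes of the set, Rps4l, Tm4sf1, Qpct, Aldh3a1 and Tdrd9, replicates 1 and 2 were the highest pair, as in Cma1, Tpsb2 and Mcpt4. This pair was also the highest in 413 of the other 1011 genes of the table, more often than any other pair. Replicates 1 and 2 together held all of the Rps4l level. Of that of Tm4sf1 they held 35.2% and 40.3%, and for Aldh3a1 they held 38.8% and 37.1%. For Tdrd9, replicate 1 held 19.8% and replicate 4 19.6%, so the order beyond replicate 2 was not distinct. The part of mast cell RNA in these levels was not tested. In the other 27 genes the highest pair was another one, most often replicates 2 and 4 with 9 genes.

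**Figure D4:**
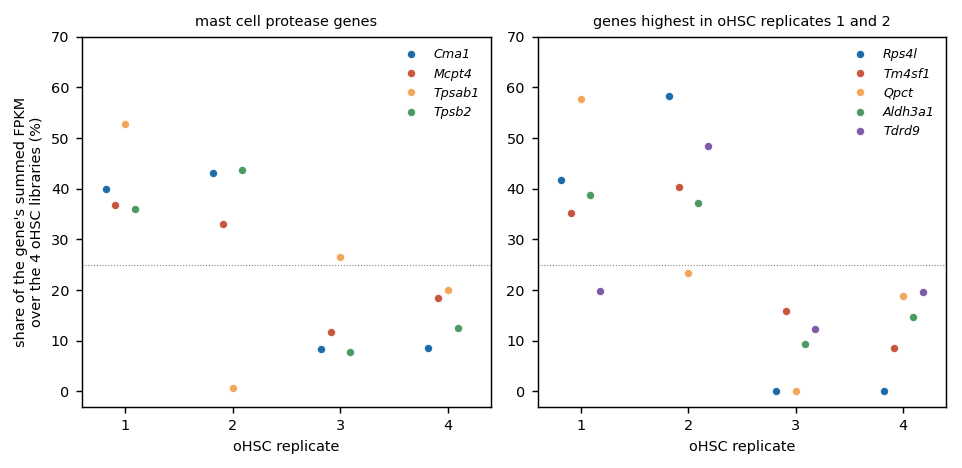
Share of each gene's summed FPKM found in each of the 4 oHSC libraries (%), for the 4 mast cell protease genes at 0 in yHSCs (left) and the 5 genes of the set with replicates 1 and 2 highest (right), with the dotted line at an equal share and points set side by side for clarity. Cma1 holds 39.9% and 43.1% in replicates 1 and 2, and Rps4l 41.7% and 58.3%, with 0 in replicates 3 and 4.

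Tpsb2 and Mcpt4 were also listed in the libraries of the Clu knockout experiment, which used other transplanted oHSCs and its own table. Tpsb2 was at 2.55, 0 and 34.7 FPKM in the 3 control guide libraries and Mcpt4 at 0.317, 0 and 7.77 FPKM, so control replicate 2 was at 0 for both. In the 4 libraries with a guide against Clu both genes were at 0. That experiment's table lists only 583 genes, and how they were chosen was not examined, so nothing is read from these zeros. These values come from another table and were not compared with the others. The 32 genes have no value in it, since the rule left out any gene listed there.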

How the data were processed

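RNA-seq values of 4 oHSC and 3 yHSC libraries were used. Per the methods of the study, the authors trimmed the reads (TrimGalore), aligned them to mm10 (Hisat2), counted them (FeatureCounts) and compared the groups with DESeq2. The 1043 genes of the deposited table are, by name, those of the study's list of genes higher in oHSCs. No unit stands in the headers. The values that the authors deposited were read as FPKM, which corrects for the length of a transcript and the size of a library, although TPM is possible. The step that made the values and the gene annotation are not given in the sources used here. Depth is unknown: ratios of values under 1 FPKM were searched for whole-read steps, and at most 5.80% of genes fell within a window of 1%. No interval or floor from counts is therefore given.

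The genes and the gene lists were chosen with earlier results of these data known. A gene entered at a value of 0 in all 3 yHSC libraries, outside the Clu knockout table, except Cma1 and Tpsab1. The rule for naming genes took the 15 with the highest mean, the 3 with the lowest, those steadiest and least steady at a mean of at least 1 FPKM, members of the lists, the 5 genes just outside and the left-out genes. Others were named after their values were seen. Of the 32 genes 2 stay in the counts and are not reported here by name. The lists cover mast cell and basophil, neutrophil and monocyte, lymphocyte, erythroid, megakaryocyte and platelet, stroma and endothelium, hormone, transcription factor, germ cell, cilia, channel and transporter, muscle and cytoskeleton, metabolic, and interferon genes.

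limma (version 3.58.1, R 4.3.3) was fitted two-sided to log2(FPKM + 1) over all 1043 genes, after tests on simulated data, and is used only for the whole table and for list genes outside the set. A fold change on this scale understates that of low genes. Same-numbered oHSC and yHSC libraries deviated together (r = 0.41, 0.16 and 0.16 across genes), although oHSC replicate 4, which has no partner, gave 0.19 with yHSC replicate 3. All 3 being over 0.1, a block fit took the labels' replicate numbers as pairs. Genes were matched to GENCODE M21 (GRCm38), all 32 of them, 1 by an older symbol. It need not be the annotation the authors used. Promoters are from RefSeq (GRCm38.p6). Alternatives were other pseudocounts, filters, scalings, adjusted p-values, limits on a zero and each library left out.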

Additional observations from a re-analysis of the deposited data

Results flagged for a closer look

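Among 46 genes tested for 1 oHSC library far from the other 3 (Dixon's gap over range, 4 libraries), 4 were past the critical value. Chance flags about 1 in 20 if the values follow a normal distribution, and low FPKM values with zeros need not follow one. The flagged genes were Kcnn2 at 0.373 FPKM in replicate 1, Gm26760 at 1.30 FPKM in replicate 3, Slc13a2 at 1.46 FPKM in replicate 3 and Kiss1r at 0.894 FPKM in replicate 4. In each of the 4 the library apart was the highest. In Gm26760 the other 3 libraries lay between 0.296 and 0.327 FPKM, and the gap was 96.9% of the range.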

How the results depend on the processing

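Of 60 results under alternatives, 47 stayed within the limits set for them and 13 moved. All are counts or medians, which have no direction that could change. The count of 652 genes higher in oHSCs became 125 after median-of-ratios scaling, 151 after column-total scaling, 389 with Benjamini-Hochberg adjusted p-values and 752 with the replicate block, and lay between 405 (without yHSC replicate 3) and 655 with 1 library left out. The 10 genes lower became 54, 40, 9 and 12 in the same order, and 8 to 13 with 1 library left out. The block fit takes nothing from oHSC replicate 4, which has no yHSC partner, and all 1043 fold changes in it equal those without that library. Both scalings use only genes selected as higher in oHSCs, so a fall in the count was built in. Column totals of such genes are not depths. The set of 32 genes became 57 with a limit of under 0.1 FPKM in place of 0, 34 with the genes of the Clu knockout table kept, and 39 to 50 with 1 yHSC library left out, most without replicate 1. Leaving out a yHSC library can only add genes under this rule. That all 32 remained in each such set was therefore fixed in advance. The replicate block moved no count of list genes by over 1.5 times except that for cilia. The 22 genes above 0 in all oHSC libraries became 4 at a limit of 1 FPKM, and 22 to 25 with 1 library left out. The median of the mean level was 2.17 FPKM over the 7 genes with a mean of at least 1 FPKM, and 0.553 to 0.669 FPKM with 1 library left out. The median SD of log2 levels moved from 0.39 to 0.89 with a pseudocount of 0.1, which widens the scale of low values, and lay between 0.31 and 0.38 with 1 library left out. Unknown depth limits every statement on a value of 0.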
